A study of Homo sapiens with 36 samples.

Results

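The 10 genes described here encode feedback inhibitors of mitogen-activated protein kinase (MAPK) signalling, and they were taken by name: 5 dual-specificity phosphatases (DUSP1, DUSP4, DUSP5, DUSP6 and DUSP10), 3 Sprouty genes (SPRY1, SPRY2 and SPRY4) and 2 Spred genes (SPRED1 and SPRED2). They are 10 of the 60725 Ensembl genes that were quantified, of which 42166 had any count. All 10 had reads in each of the 36 libraries, from a lowest count of 2 (SPRY1) to a highest of 10390 (DUSP1).

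The libraries form 18 groups of 2. MCF-10A ER-Src cells are immortal but not transformed human breast epithelial cells, and their v-Src kinase is joined to the tamoxifen-responsive domain of the estrogen receptor. The cells received tamoxifen (TAM), which switches v-Src on and transforms them, or the vehicle ethanol (ETH). The stated recipe for transformation is tamoxifen at 0.4 to 1 µM together with 2 to 4 µM of AZD0530, an inhibitor of Src-family kinases, with AZD0530 at 4 µM after siRNA transfection. The methods name a short and a day-long treatment of transfected cells, and which of them the RNA libraries had is not stated. All ER-Src cells grew in medium with EGF at 20 ng/ml, a growth factor that itself feeds the MAPK cascade, along with insulin, hydrocortisone and cholera toxin. Within each treatment, pools of small interfering RNAs lowered YAP (YAPi) or its relative TAZ (TAZi), or the transcription factors STAT3 (STAT3i) or JUNB (JUNBi), with a control siRNA (Ctrli) beside them. MDA-MB-231, an established triple-negative breast cancer line, was studied without tamoxifen in 2 sets, each with its own Ctrli libraries: set 1 with YAPi, TAZi, YAP and TAZ together (YAPi_TAZi) and the TEAD family (TEADi), and set 2 with JUNBi and STAT3i. The study asked which genes respond to the co-activators YAP and TAZ and to the transcription factors they join.

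Growth factor receptors and Src pass their signal through RAS, RAF and MEK to the kinase ERK. Active ERK induces genes whose products shut the same route down, which is the feedback described here. Phosphatases of the DUSP group remove phosphate from MAPKs. DUSP6 acts on ERK in the cytoplasm, DUSP5 on ERK in the nucleus, DUSP1 and DUSP4 are inducible nuclear enzymes with a wider choice of MAPKs, and DUSP10 prefers the stress kinases p38 and JNK. Sprouty proteins act higher up, between receptor and RAF, and Spred proteins bring the RAS inhibitor neurofibromin to the membrane.

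Promoters are shown for 3 members with a change that passed the test in all alternatives below, with TAM against ETH (DUSP1 and SPRED1) or with STAT3i (DUSP6). The letters are the 250 bases before the annotated start on the strand of the gene (RefSeq, build GRCh38.p14), and capitals mark the cyclic AMP response element (CRE), TGACGTCA. The windows are chr5:172771196-172771445 on the minus strand for DUSP1, chr12:89352502-89352751 on the minus strand for DUSP6 and chr15:38252586-38252835 on the plus strand for SPRED1.
DUSP1: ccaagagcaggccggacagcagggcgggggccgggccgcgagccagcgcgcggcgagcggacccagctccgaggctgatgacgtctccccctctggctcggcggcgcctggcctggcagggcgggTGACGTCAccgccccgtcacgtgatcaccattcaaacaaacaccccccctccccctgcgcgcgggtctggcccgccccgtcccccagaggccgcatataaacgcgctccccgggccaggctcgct
DUSP6: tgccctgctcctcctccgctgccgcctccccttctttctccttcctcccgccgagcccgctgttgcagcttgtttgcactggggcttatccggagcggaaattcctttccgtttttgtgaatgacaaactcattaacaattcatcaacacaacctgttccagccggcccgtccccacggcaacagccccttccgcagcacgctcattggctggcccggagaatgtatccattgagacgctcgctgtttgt
SPRED1: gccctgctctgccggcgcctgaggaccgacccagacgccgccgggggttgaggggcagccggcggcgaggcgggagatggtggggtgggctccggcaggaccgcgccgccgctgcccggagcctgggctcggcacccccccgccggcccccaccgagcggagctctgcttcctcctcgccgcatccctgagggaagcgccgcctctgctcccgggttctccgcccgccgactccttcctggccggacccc
DUSP1 held 1 CRE, from 125 to 118 bases before its start, and a CRE was found in 1.85% of all 35116 promoter windows of 300 bases, counted on both strands. The windows of DUSP6, DUSP10 and SPRED1 held none of the 6 motifs searched. These were AP-1 (TGANTCA, in 7.71% of all windows), CRE, STAT (TTCNNNGAA, 7.66%), TEAD (GGAATG, 14.03%), ETS (CCGGAA, 17.25%) and the serum response CArG box (1.29%). Before their starts, SPRY1 had a STAT and an ETS match and SPRY2 an ETS match. At or after the start, SPRY4 had a TEAD match and SPRED2 had 2 AP-1 matches, the first of them running across the start. 8 of the 10 members were in the promoter table, with 13 windows, since several have more than 1 annotated start.

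The quality of the libraries differs in ways that bear on the members. The ER-Src libraries held 6419720 to 19161700 assigned reads and expressed basal epithelial KRT5 at 1012 to 2622 TPM (a level scaled by transcript length and by the total of the library). MDA-MB-231 had VIM at 369 to 2591 TPM with CDH1 and ESR1 at 2.57 TPM or below, and the leukocyte markers PTPRC and CD3E were at 0.37 TPM or below in both lines. Other markers looked at did not separate the lines in that way. LAMB3, taken as a basal epithelial marker, was 32.34 to 363.02 TPM in MDA-MB-231 and 38.66 to 93.86 TPM in ER-Src. In the same order EPCAM was 3.1 to 17.42 and 5.24 to 31.3 TPM, and ERBB2 was 6.29 to 28.43 and 5.29 to 12.27 TPM. In MDA-MB-231 set 1 the 2 Ctrli libraries had 13456784 and 13534560 reads, against 1411304 to 2784605 in the 8 knockdown libraries. A group of 6 RNAs without a poly(A) tail took 0.0028% to 0.0041% of the reads in those controls and 8.71% to 11.8% in those knockdowns. In set 1, knockdown and library type therefore cannot be told apart. RSEM sets the effective length of a transcript from the fragment or read lengths of a library. The median gap between length and effective length, taken over the longer genes, was 48.0 bases in each replicate 1 of these knockdowns. It was 74.6 bases in each replicate 2 and 75.0 bases in the controls. The set 2 libraries, with 7290499 to 18076158 reads, had 0.0036% to 0.0112% of the RNAs without a poly(A) tail and a gap of 74.5 bases. The ER-Src libraries had 9.43% to 11.7% and a gap of 49.0 to 49.5 bases. Between ER-Src and set 2, cell line and library type therefore cannot be told apart. In ER-Src cells each siRNA target was lower in its knockdown: YAP1 fell by 2.49 and 2.38 on the log2 scale in TAM and ETH, WWTR1 (TAZ) by 2.23 and 1.86, and STAT3 by 2.66 and 1.88. JUNB fell by 2.03 in TAM, whereas in ETH its 2 JUNBi libraries were at 3.9 and 8.55 TPM against 11.94 and 12.99 in Ctrli (adjusted p = 0.0637). In set 1 the targets were also lower in TPM in knockdowns not aimed at them. On that scale VIM, which no siRNA targeted, was lower too, with a mean of 2557 TPM in Ctrli and 514 to 769 in the knockdowns. Not all genes were: PDGFRB was 1.59 TPM in Ctrli and 3.79 with TAZi. Mean WWTR1 was 51.8 TPM in Ctrli, 10.1 with YAPi and 14.4 with TEADi. YAP1 was 62.3 TPM in Ctrli, 42.2 with TAZi and 40.6 with TEADi. TEAD4 was 22.5 TPM in Ctrli, 3.19 with YAPi, 3.09 with TAZi and 2.1 with YAPi_TAZi. A lower TPM of a target in set 1 therefore does not by itself show a specific knockdown.

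Because TPM is a level per transcript length, members can be ranked by it within a library. DUSP1 was by far the most abundant member in ER-Src cells, at 73.85 and 73.00 TPM in Ctrli ETH. DUSP6 followed at 20.51 and 20.77 TPM and DUSP5 at 11.68 and 8.82 TPM. DUSP4, SPRY2, SPRY4 and SPRED1 lay between 3.88 and 6.73 TPM, and DUSP10, SPRY1 and SPRED2 between 0.92 and 1.43 TPM. The last 3 are thus measured with few reads in these cells, and their intervals below are wide. Differences in RNA per cell and in the share of cells that express a gene cannot be told apart in such bulk libraries.

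**Figure D1:**
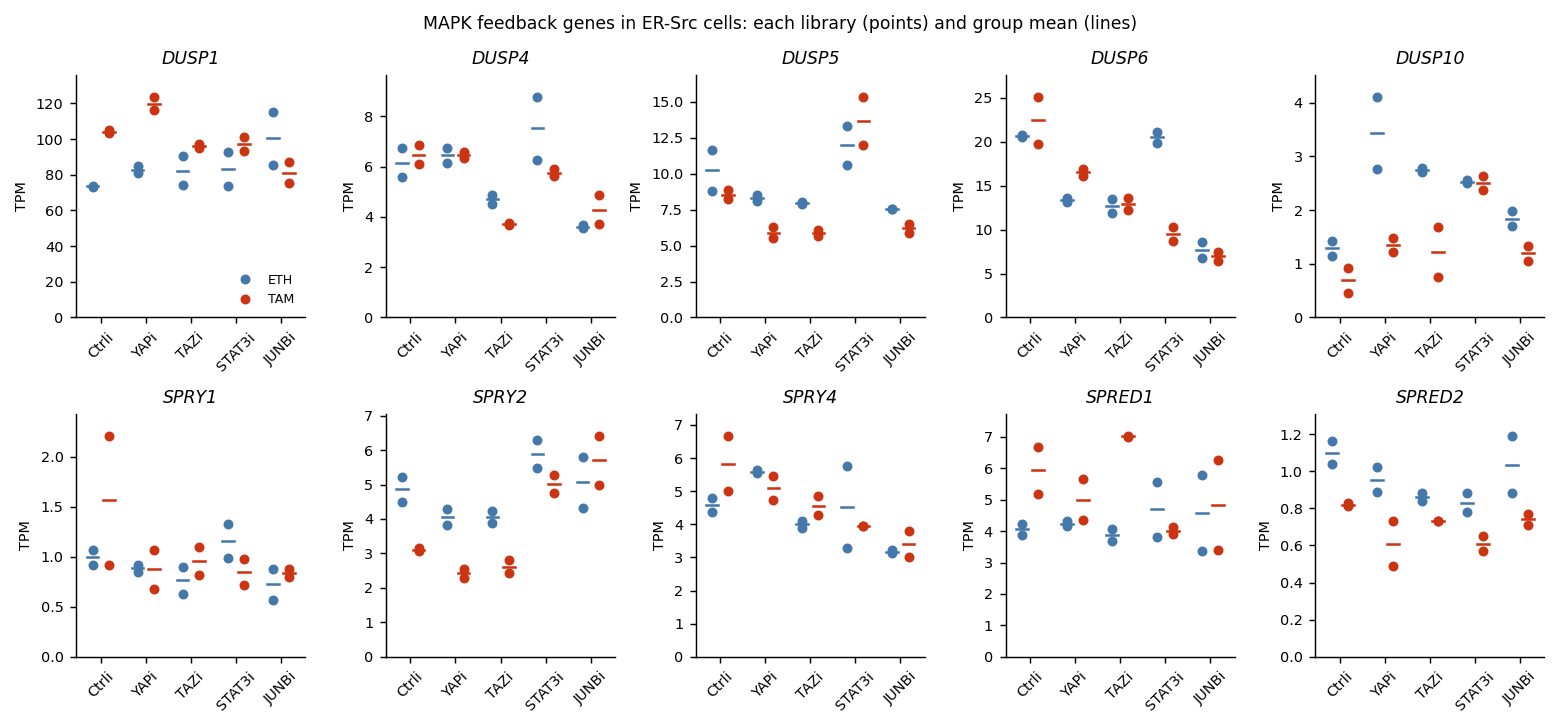
Level of each member in TPM (linear axes from 0) in the 20 ER-Src libraries; points are libraries, lines the mean of 2, blue ETH and red TAM. DUSP6 in STAT3i cells was 19.83 and 21.14 TPM in ETH but 10.31 and 8.74 TPM in TAM, and in JUNBi cells it was low in both treatments.

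TAM treatment raised 3 members in Ctrli cells, the ERK-inducible phosphatase DUSP1, SPRY4 and SPRED1, and lowered none (5.69% of all 16315 genes tested were called at an adjusted p under 0.01 in DESeq2). The stated recipe adds AZD0530 to tamoxifen, so active v-Src and AZD0530 cannot be told apart in this comparison. DUSP1 went from 73.85 and 73.00 TPM in ETH to 103.22 and 104.98 TPM in TAM. Both TAM libraries lay above both ETH libraries, and the log2 change in counts was 0.69 ± 0.11 (SE, adjusted p = 9.7e-09). SPRED1 went from 3.88 and 4.23 TPM to 6.69 and 5.17 TPM, again without overlap, with a log2 change of 1.14 ± 0.16 (adjusted p = 2.59e-10). SPRY4 went from 4.81 and 4.36 TPM to 6.67 and 5.00 TPM, a log2 change of 0.77 ± 0.20 (adjusted p = 0.00197).

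The rises of DUSP1 and SPRED1 passed the test in all 11 alternatives, with log2 changes of 0.58 to 0.79 and 0.82 to 1.22. That of SPRY4 passed in 5 of 11 and failed whenever any 1 of the 4 libraries was left out (adjusted p = 0.0383 to 0.419). The other 7 members did not pass the test. DUSP6 had a log2 change of 0.32, with a 95% interval from -0.0017 to 0.64, and DUSP10 one of -0.89, from -1.87 to 0.08. The median log2 change was 0.324 over the members and -0.01 over all genes tested. In the same libraries JUNB rose by 2.51 ± 0.16 and STAT3 by 1.12 ± 0.11 on the log2 scale.

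Genes that report ERK output gave no call in TAM against ETH (background 5.69%). None of 14 such genes (EGR1, EGR2, EGR3, IER3, FOSL1, MAFF, PHLDA1, CCND1, EPHA2, EPHA4, ETV1, ETV4, ETV5 and HMGA2) passed the test, 12 of which had an adjusted p. With so few genes and that background, the lack of a call does not show that they were unchanged. Of 7 further phosphatase, Sprouty and Spred genes, 5 of them with an adjusted p, none passed either, and SPRED3 came near the threshold with a log2 change of 2.55 ± 0.75 (adjusted p = 0.0121) and no overlap between the groups.

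STAT3i in transformed cells changed 5 of the 10 members (background 8.22%). It lowered DUSP6, SPRY4, SPRED1 and DUSP1 and raised DUSP10. DUSP6 was 10.31 and 8.74 TPM in STAT3i TAM against 19.74 and 25.12 TPM in Ctrli TAM. The groups were far apart, the log2 change was -1.34 ± 0.19 (adjusted p = 1.07e-10), or 2.53-fold lower, and the call was kept in all 11 alternatives. SPRY4 was 3.95 and 3.95 TPM against 6.67 and 5.00 TPM, a log2 change of -1.01 ± 0.21 (adjusted p = 4.78e-05). SPRED1 was 4.12 and 3.91 TPM against 6.69 and 5.17 TPM, a log2 change of -0.75 ± 0.16 (adjusted p = 0.000113).

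DUSP10 was 2.38 and 2.63 TPM in STAT3i TAM against 0.93 and 0.45 TPM in Ctrli TAM. Although these levels do not overlap, the change of 1.51 ± 0.42 (adjusted p = 0.00502) passed in only 5 of 11 alternatives. The fall of DUSP1, by 0.41 ± 0.11 on the log2 scale (adjusted p = 0.00472), passed in 2 of 11, and in TPM its 93.37 and 101.20 in STAT3i stood close to 103.22 and 104.98 in Ctrli. DUSP4, DUSP5, SPRY1, SPRY2 and SPRED2 were not called, with log2 changes from -0.72 to 0.46. When 1 library was left out, 1 to 2 of the 5 calls were kept. JUNB fell by 2.41 ± 0.16 in the same comparison, to 14.44 and 14.88 TPM from 54.35 and 71.05 TPM, and its part in the members' changes was not tested.

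JUNBi in transformed cells lowered 4 members and raised none (background 6.9%). These were DUSP6, SPRY4, DUSP4 and DUSP1. DUSP6 was 7.45 and 6.48 TPM in JUNBi TAM, the lowest level of any ER-Src group, against 19.74 and 25.12 TPM in Ctrli TAM. Its log2 change was -1.56 ± 0.19 (adjusted p = 4.16e-14), or 2.95-fold lower, and it missed the threshold in 1 of 11 alternatives, the quasi-likelihood test of edgeR (adjusted p = 0.0137). SPRY4, at 3.81 and 3.02 TPM, changed by -1.08 ± 0.20 (adjusted p = 5.89e-06). DUSP4 was 4.85 and 3.71 TPM against 6.10 and 6.85 TPM, a log2 change of -0.79 ± 0.17 (adjusted p = 0.000115).

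DUSP1 was 87.08 and 75.45 TPM in JUNBi TAM, below both Ctrli libraries, and changed by -0.57 ± 0.11 (adjusted p = 2.03e-05). With edgeR none of the 4 passed (adjusted p = 0.0137 to 0.0776), where it called 8 genes higher and 19 lower in all. The local dispersion trend called 7 members, and 759 genes higher and 917 lower in all. SPRY2 stood on the other side, at 6.41 and 4.99 TPM against 3.16 and 3.06 TPM, with a log2 change of 0.67 ± 0.26 (adjusted p = 0.0752). For SPRED1 the 2 JUNBi libraries stood apart from each other, at 6.27 and 3.39 TPM, and 1 to 3 of the 4 calls were kept when 1 library was left out.

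TAZi in transformed cells lowered 3 phosphatases, DUSP4, DUSP5 and DUSP6, in DESeq2 (background 2.78%). No Sprouty or Spred gene passed in DESeq2, while edgeR also called SPRY4, at -0.43 (adjusted p = 0.00327). DUSP4 was 3.66 and 3.76 TPM against 6.10 and 6.85 TPM in Ctrli TAM. The 2 groups were clearly separate, with a log2 change of -0.93 ± 0.16 (adjusted p = 1.24e-06), and the call held in 9 of 11 alternatives. DUSP5 was 5.65 and 6.09 TPM against 8.86 and 8.23 TPM, a log2 change of -0.74 ± 0.20 (adjusted p = 0.00753). DUSP6 was 13.59 and 12.18 TPM and changed by -0.69 ± 0.17 (adjusted p = 0.00373). The calls of DUSP5 and DUSP6 were lost when any 1 of the 4 libraries was left out, and of the 3 calls between 0 and 1 were then kept.

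YAPi in transformed cells called none of the 10 members, against a background of 10.4% (1511 of 14528 genes; 3804 genes had an unadjusted p under 0.05). DUSP6 was 16.10 and 16.89 TPM, below both Ctrli TAM libraries at 19.74 and 25.12 TPM. Its normalized counts overlapped those of the controls, and on that scale the log2 change was -0.06 with a 95% interval from -0.39 to 0.27. DUSP4 was 6.33 and 6.56 TPM, with a log2 change of 0.02 and an interval from -0.30 to 0.33. Those intervals leave out a change of the size seen with TAZi for DUSP4. DUSP10, at 1.47 and 1.22 TPM against 0.93 and 0.45 TPM, had a log2 change of 1.22 ± 0.45 (adjusted p = 0.0432), which edgeR called (adjusted p = 5.91e-05).

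Set directly against each other, YAPi and TAZi differed for 3 members in transformed cells (background 6.26%). DUSP4, DUSP6 and DUSP1 were all higher with YAPi. For DUSP4 the log2 difference was 0.95 ± 0.15 (adjusted p = 1.13e-08) and passed in all 11 alternatives. For DUSP1, at 123.80 and 116.08 TPM with YAPi and 95.12 and 97.52 TPM with TAZi, it was 0.44 ± 0.09 (adjusted p = 2.6e-05), a call kept in 7 of 11. For DUSP6 it was 0.63 ± 0.16 (adjusted p = 0.00263), a call kept in 5 of 11. STAT3i and JUNBi differed for 1 member (background 5.79%). This was DUSP5, the nuclear ERK phosphatase, at 12 and 15.37 TPM with STAT3i and 6.54 and 5.90 TPM with JUNBi. Its log2 difference was 0.87 ± 0.19 (adjusted p = 9.16e-05), and it missed the threshold when any 1 of the 4 libraries was left out (adjusted p = 0.0166 to 0.0673). For DUSP6 the same difference was 0.23, with a 95% interval from -0.19 to 0.66, and for SPRY4 0.09, from -0.36 to 0.53.

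**Figure D2:**
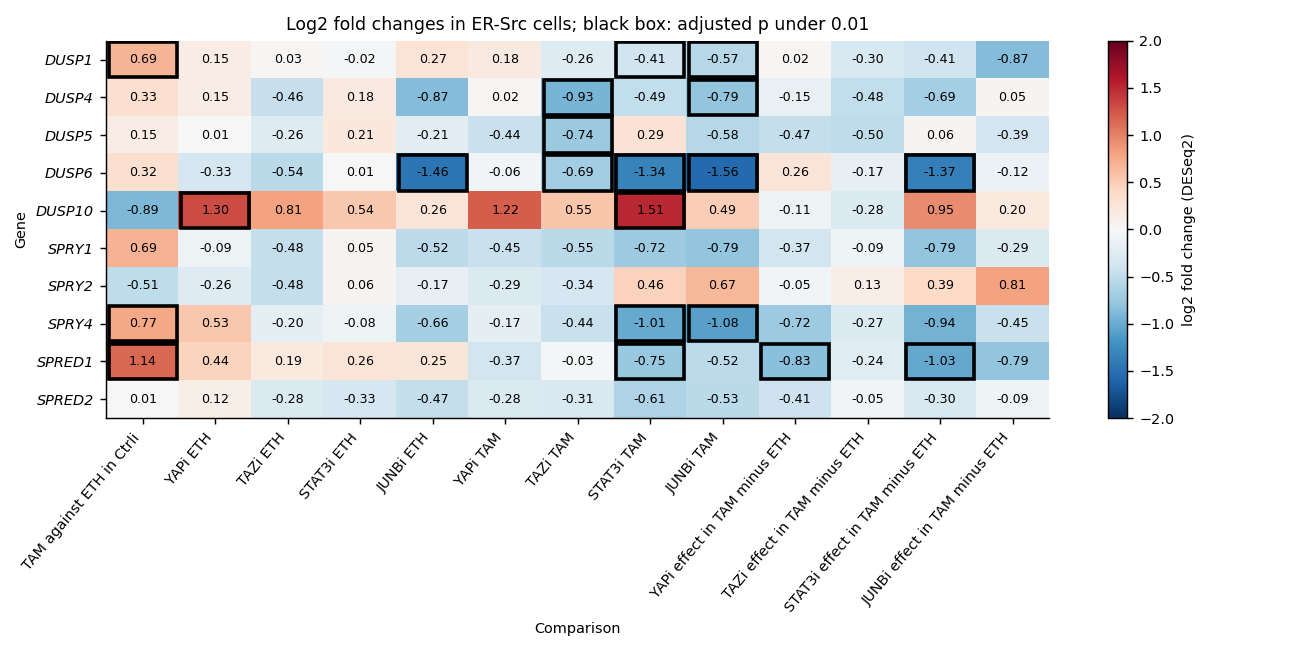
Log2 fold change of each member (rows) in 13 ER-Src comparisons (columns), printed in each cell and coloured from blue (lower) to red (higher); black boxes mark an adjusted p under 0.01. DUSP6 carries boxes in the STAT3i, JUNBi and TAZi columns of TAM in the JUNBi column of ETH and in the STAT3i column of TAM minus ETH, and no box in a YAPi column.

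In non-transformed cells DESeq2 called at most 1 member with any knockdown, and edgeR called up to 3. A missing call does not show that a member was unchanged. STAT3i called 0 of 10 members there (background 0.173%, 36 genes in DESeq2; 622 genes had an unadjusted p under 0.05, and edgeR called no member either). DUSP6 was 19.83 and 21.14 TPM in STAT3i ETH against 20.51 and 20.77 TPM in Ctrli ETH. These overlap, and the log2 change was 0.01 with a 95% interval from -0.37 to 0.39. JUNBi lowered 1 member (background 2.8%), DUSP6, to 6.76 and 8.62 TPM. Its log2 change was -1.46 ± 0.27 (adjusted p = 6.98e-06), kept in 9 of 11 alternatives and lost when either Ctrli ETH library was left out (adjusted p = 0.149 and 0.224). DUSP4, at 3.68 and 3.54 TPM against 6.73 and 5.59 TPM, had a log2 change of -0.87 ± 0.26 (adjusted p = 0.0222), which passed with edgeR (adjusted p = 0.00873).

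YAPi in ETH raised 1 member (background 11.6%), DUSP10. Its levels were 4.11 and 2.76 TPM against 1.43 and 1.15 TPM in Ctrli, a log2 change of 1.30 ± 0.30 (adjusted p = 0.000236), kept in 6 of 11 alternatives. TAZi in ETH called 0 of 10 (background 4.94%, 726 genes; 2872 genes had an unadjusted p under 0.05), while edgeR called DUSP4, DUSP6 and DUSP10. DUSP6 was 13.48 and 11.83 TPM, below both Ctrli ETH libraries, with a log2 change of -0.54 ± 0.17 (adjusted p = 0.0255).

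Whether a knockdown acted differently in the 2 states was tested with an interaction term over the 8 libraries of each siRNA. For STAT3i, 2 members differed (background 1.34%), DUSP6 and SPRED1. The DUSP6 difference, the STAT3i effect in TAM minus that in ETH, was -1.37 ± 0.26 on the log2 scale (adjusted p = 1.89e-05) and passed in all 15 alternatives, with values from -1.49 to -1.24. For SPRED1 it was -1.03 ± 0.24 (adjusted p = 0.00226) and passed in 9 of 15. SPRY4 had a difference of -0.94 ± 0.33 (adjusted p = 0.153), so that its fall in TAM was not shown to be particular to transformed cells.

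For JUNBi 0 of 10 members differed between the states (background 0.288%, 46 genes in DESeq2; 903 genes had an unadjusted p under 0.05, and edgeR called no member). The DUSP6 difference was -0.12 there, with a 95% interval from -0.70 to 0.45. DUSP6 was low in JUNBi cells of both states, and the interval leaves out a difference as large as that of STAT3i. For YAPi 1 member differed (background 0.498%), SPRED1, by -0.83 ± 0.20 (adjusted p = 0.00778), and this became -0.42 (adjusted p = 0.801) when the effective transcript lengths entered the fit. For TAZi 0 of 10 differed (background 1.6%, 71 genes in DESeq2, 1408 with an unadjusted p under 0.05, and no member with edgeR), and 4 members had an adjusted p.

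Genes that report ERK output were called in several of the same comparisons. With JUNBi in TAM 5 of 14 fell and none rose (12 with an adjusted p in each of these comparisons, background 6.9%), among them ETV4 (-1.77 ± 0.38), ETV1 (-1.41 ± 0.26), EGR1 (-1.97 ± 0.51) and PHLDA1 (-1.02 ± 0.19). With STAT3i in TAM 2 fell (background 8.22%), EGR1 (-1.75 ± 0.49) and IER3 (-0.73 ± 0.19), and with TAZi in TAM 2 (background 2.78%), IER3 (-0.67 ± 0.17) and ETV1 (-0.88 ± 0.24). With YAPi in TAM 3 fell and 2 rose (background 10.4%), the latter being CCND1 (1.29 ± 0.14) and HMGA2 (1.25 ± 0.27). In ETH 3 fell with JUNBi (background 2.8%), 1 fell with TAZi (background 4.94%), and 2 fell and 2 rose with YAPi (background 11.6%). STAT3i in ETH called none of them (background 0.173%). Of the further feedback genes, DUSP7 fell with JUNBi (-1.03 ± 0.30) and SPRED3 with STAT3i (-2.62 ± 0.71), both in TAM.

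Over the 10 ER-Src group means, the profile of DUSP6 was most like those of EFHD2 (r = 0.857), SNORD88C (0.855) and FHOD1 (0.842) among 6872 genes compared, as Pearson correlations of log2(TPM + 1). For SPRY4 they were ITGA5 (0.872), PXN (0.855) and SNORA7A (0.827), and for DUSP4 IER3 (0.887), DIAPH1 (0.887) and LETM2 (0.87). Among the members, DUSP6 and SPRY4 had r = 0.796, DUSP6 and SPRY1 0.742, and DUSP6 and DUSP4 0.736. DUSP1 and DUSP6 had r = -0.009. These values are descriptions over 10 points that share their normalization and culture.

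In MDA-MB-231 the members' levels differed between the Ctrli libraries of the 2 sets, which were alike in their share of RNAs without a poly(A) tail and in the length gap. The Ctrli libraries of set 1 had DUSP6 at 193.11 and 208.89 TPM, and those of set 2, the same line with the same label, at 7.73 and 5.05 TPM. That is a ratio of 31.5 between the means. SPRY1 was 56.0 times, DUSP1 12.5 times and SPRED1 10.1 times as high in set 1, and the lowest ratio was 1.63 for DUSP10. The median ratio was 7.95 over the 10 members and 1.86 over 12068 genes with a mean of at least 1 TPM in both sets. Which set is closer to MDA-MB-231 in culture was not tested, and each knockdown below is read against the controls of its own set.

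**Figure D3:**
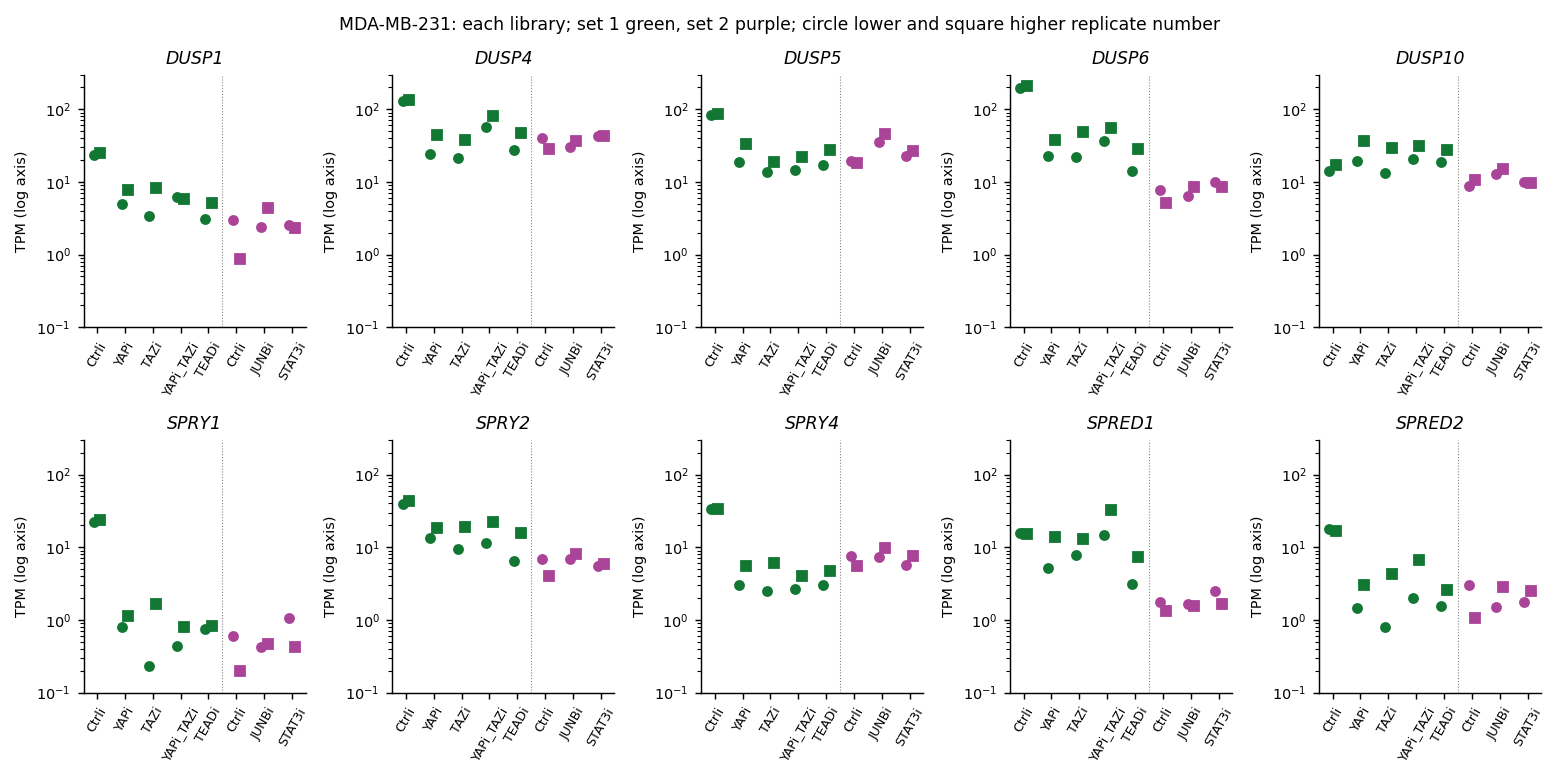
Level of each member in TPM (log axes) in the 16 MDA-MB-231 libraries, set 1 in green and set 2 in purple, with the lower-numbered replicate as a circle and the other as a square. The set 1 Ctrli libraries stand above the set 2 Ctrli libraries for each of the 10 members, and in set 1 knockdowns replicate 1 is below replicate 2 with 1 exception, DUSP1 in YAPi_TAZi.

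Against the set 1 controls most members were called with each knockdown, as were many genes of any kind. YAPi called 7 of 10 members (background 24.6%), TAZi 8 (background 32.6%), YAPi_TAZi 8 (background 35.5%) and TEADi 7 (background 27.4%). DUSP6, SPRY1, SPRY4 and SPRED2 fell with all 4 and DUSP10 rose with all 4. DUSP6 changed by -2.10 to -1.07, SPRY4 by -2.36 to -2.03, SPRY1 by -3.96 to -2.66 and DUSP10 by 1.94 to 2.30 on the log2 scale. The SPRY1 values rest on 2 to 9 reads a knockdown library, against 351 and 361 reads in the controls. In these knockdowns SPRY4 was 2.51 to 6.09 TPM against 33.28 and 33.53 TPM in the controls, so that no library overlapped. In TPM the DUSP10 libraries of the knockdowns, at 13.47 to 36.04, overlapped those of the controls at 14.08 and 17.24, so that the fold change in normalized counts is not seen to the same extent on that scale. DUSP1 and SPRY2 were called with none of the 4 in DESeq2 with default settings. DUSP1 with TEADi passed with TMM size factors (adjusted p = 0.00646), with a mean count of at least 10 (0.00838) and with the local dispersion trend (0.000312), and DUSP1 with TAZi passed with that trend (0.00898). In TPM both genes lay below the controls in each knockdown library, DUSP1 at 3.07 to 8.27 against 23.19 and 24.77 and SPRY2 at 6.52 to 22.3 against 39.09 and 42.81. SPRED1 rose with YAPi, TAZi and YAPi_TAZi, and DUSP4 fell with YAPi, TAZi and TEADi but rose with YAPi_TAZi by 0.40 ± 0.08 on the log2 scale of normalized counts (adjusted p = 7.68e-06). In TPM that DUSP4 rise is a lower level, at 57.55 and 79.74 with YAPi_TAZi against 131.55 and 135.12 in the controls, so its direction depends on the scale. The same holds for SPRED1 with YAPi (5.17 and 13.64 TPM) and TAZi (7.71 and 12.97 TPM), both below the controls at 15.76 and 15.11 TPM. A fall in TPM was not particular to the members in these knockdowns. Mean VIM was 2557 TPM in the controls and 514 to 769 in the knockdowns, and mean LAMB3 was 355 and 42.7 to 70.7. COL1A2, at 0.29 TPM in the controls, was not lower. In normalized counts the median log2 change over all genes tested was -0.019 to 0.058.

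Each set 1 knockdown was also set against the other 3, in a fit blocked by replicate number. Changes that these knockdowns share, whatever their source, cancel in this comparison, so it does not bear on whether the changes against the controls are real. No member passed for YAPi or TAZi. DUSP4 passed for YAPi_TAZi, and SPRED1 passed for TEADi (-1.77, adjusted p = 0.00042), which had not been called against the controls. With the controls of both sets as reference, 1, 1, 3 and 2 members passed for YAPi, TAZi, YAPi_TAZi and TEADi. DUSP10 passed against the pooled controls with each knockdown, SPRY4 with YAPi_TAZi and TEADi, and SPRED1 with YAPi_TAZi.

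**Figure D4:**
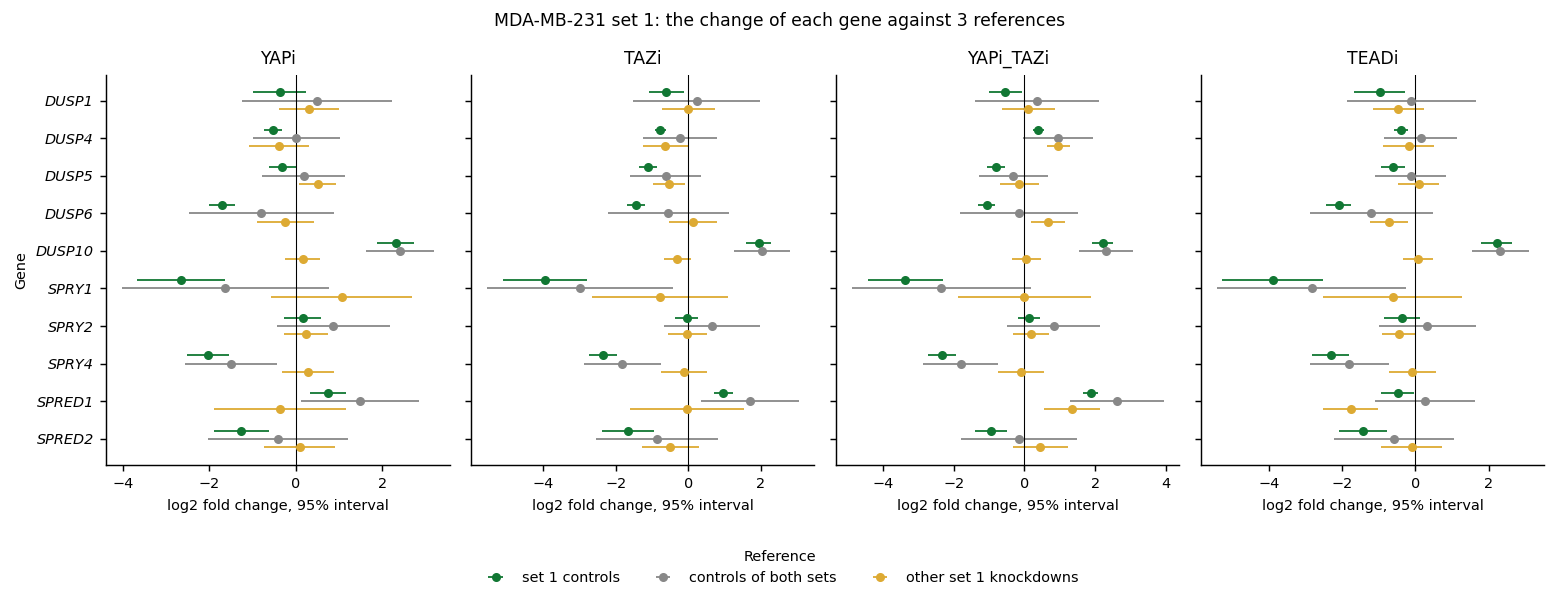
Log2 fold change of each member in set 1 with its 95% interval, against the set 1 controls (green), the controls of both sets (grey) and the other set 1 knockdowns (yellow). For SPRY4 and SPRY1 the green points lie between -3.96 and -2.03, while the yellow points lie between -0.78 and 1.06.

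The knockdowns of set 1 were also compared with each other, without the controls. Between YAPi and TAZi 0 of 10 members differed (background 2.02%, 145 genes in DESeq2, 842 with an unadjusted p under 0.05, 6 members with an adjusted p), and edgeR called DUSP5, at a log2 difference of 0.76 (adjusted p = 0.00413). For DUSP4 that difference was 0.22, with a 95% interval from -0.09 to 0.53. Between YAPi_TAZi and TEADi 3 members differed (background 4.67%, 9 members with an adjusted p), SPRED1, DUSP6 and DUSP4, all higher with YAPi_TAZi.

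SPRED1 was 14.84 and 32.16 TPM with YAPi_TAZi and 3.12 and 7.41 TPM with TEADi. The log2 difference of 2.36 ± 0.21 (adjusted p = 6.02e-27), or 5.14-fold, passed in all 9 alternatives. DUSP6 was 36.22 and 54.46 TPM against 14.09 and 28.79 TPM, a log2 difference of 1.03 ± 0.22 (adjusted p = 0.000149), and DUSP4 was 57.55 and 79.74 TPM against 27.74 and 46.47 TPM, a difference of 0.79 ± 0.14 (adjusted p = 7.35e-07). For each of these genes both replicates of YAPi_TAZi stood above the same-numbered replicate of TEADi, and the DUSP6 call was lost when any 1 of the 4 libraries was left out.

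In set 2, JUNBi raised 1 member, DUSP5, and lowered none (background 3.41%, 7 members with an adjusted p). DUSP5 was 35.92 and 45.46 TPM in JUNBi against 19.17 and 18.22 TPM in Ctrli, a log2 change of 0.82 ± 0.22 (adjusted p = 0.00739) that missed the threshold without either Ctrli library (adjusted p = 0.0381 and 0.0353) and had no adjusted p without either JUNBi library. DUSP6 was 6.35 and 8.44 TPM, overlapping the Ctrli values of 7.73 and 5.05 TPM. Its log2 change was -0.07, with a 95% interval from -0.65 to 0.51, which leaves out the fall seen with JUNBi in either ER-Src state. ER-Src and set 2 differ in library type as well as in cell line.

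STAT3i in set 2 called 0 of 10 members (background 0.497%, 10 genes in DESeq2, 691 with an unadjusted p under 0.05, and no member with edgeR). DESeq2 gave an adjusted p to 2013 genes and to 1 member, DUSP4. DUSP6 was 10.12 and 8.45 TPM, above both Ctrli libraries, with a log2 change of 0.41 and a 95% interval from -0.17 to 0.99. STAT3 itself was at 2.75 and 3.07 TPM against 15.44 and 20.82 TPM.

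Across all 23 comparisons DUSP6 was called in 11, DUSP4 and SPRED1 in 8 each, SPRY4 in 7, DUSP5 and DUSP10 in 6 each, DUSP1, SPRY1 and SPRED2 in 4 each, and SPRY2 in none. Many of these comparisons share control libraries and are not independent. Over the 18 groups DUSP6 ranged from 6.39 ± 1.90 TPM in set 2 Ctrli to 201 ± 11.2 TPM in set 1 Ctrli (SD, n = 2), and 13 of the 17 neighbouring pairs in that order had overlapping libraries. Within ER-Src the DUSP6 order ran from Ctrli TAM (22.4 ± 3.80 TPM), Ctrli ETH (20.6 ± 0.18) and STAT3i ETH (20.5 ± 0.93) over YAPi TAM (16.5 ± 0.56), YAPi ETH (13.4 ± 0.34), TAZi TAM (12.9 ± 1.00) and TAZi ETH (12.7 ± 1.17) to STAT3i TAM (9.53 ± 1.11), JUNBi ETH (7.69 ± 1.32) and JUNBi TAM (6.97 ± 0.69). SPRED1 ranged from 1.53 ± 0.30 TPM in set 2 Ctrli to 23.5 ± 12.2 TPM in set 1 YAPi_TAZi, and DUSP1 from 1.92 ± 1.5 TPM in set 2 Ctrli to 119.9 ± 5.46 TPM in ER-Src YAPi TAM.

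DUSP1 and DUSP6 overlap a long non-coding RNA gene on the opposite strand, SPRY4 overlaps SPRY4-AS1, and SPRED2 overlaps one on its own strand. Whether the counting used strand is not given in the sources used here, so reads of these partners cannot be told apart. By the GENCODE annotation of GRCh38, the main members lie at chr12:89347235-89352501 (DUSP6, ENSG00000139318.7), chr5:172768096-172771195 (DUSP1, ENSG00000120129.5), chr5:142310427-142326455 (SPRY4, ENSG00000187678.8) and chr15:38252836-38357249 (SPRED1, ENSG00000166068.12).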

How the data were processed

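RNA was sequenced in 36 libraries, grouped by the sample titles, and nothing says whether the 2 libraries of a group came from separate cultures, so p-values measure the spread between these libraries. According to the study's methods, the authors prepared libraries from total RNA with a TruSeq Ribo Profile kit, trimmed the reads, aligned them with STAR to the GENCODE version 30 transcriptome with at most 20 alignments a read, and then ran RSEM. The submitters' notes name hg38. Deposited per library were RSEM expected counts, which can be fractional because reads shared between genes are split, TPM values, and transcript lengths and effective lengths.

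Expected counts were rounded and tested with DESeq2 1.42.0 in R 4.3.3 (Wald test, default size factors and independent filtering, 1 run per comparison, as in the study), with Benjamini-Hochberg adjustment over all genes and a call at an adjusted p under 0.01. An empty adjusted p was left empty. TPM was used for levels (mean ± SD, n = 2). 95% intervals are 1.96 standard errors either side. Alternatives were edgeR 4.0.16 (quasi-likelihood), TMM size factors, a mean count of at least 10, effective length offsets, a replicate block, 1 joint fit, other references and leaving out each library. Tested on simulated data, in which 200 genes were given a log2 change of 1.5, the fit recovered 68% for STAT3i in TAM (31049 genes, 0 false calls), 65% for TAM against ETH (30513, 1), 57% for the STAT3i interaction (34515, 2), 58.5% for YAPi in set 1 (27082, 0) and 64% for STAT3i in set 2 (22669, 1). The simulated libraries shared a mean profile scaled to each depth, with the same dispersion for all genes. They held no difference in library type, so these figures do not give the false calls of the real fits. The 96 synthetic spike-in identifiers and 650 others were left out. Symbols came from GENCODE version 44 (93.1% matched). All 10 members were named, and members and lists were chosen with earlier results of these data known. Protein sequences were not analysed here, and the list of cascade genes is not reported here.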

Additional observations from a re-analysis of the deposited data

Results flagged for a closer look

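3 differences between the transformed and the non-transformed state passed the interaction test. The STAT3i effect on DUSP6 was -1.34 on the log2 scale in TAM and 0.01 in ETH, and the interaction was -1.37. The STAT3i effect on SPRED1 was -0.75 in TAM and 0.26 in ETH, with an interaction of -1.03. The YAPi effect on SPRED1 was -0.37 in TAM and 0.44 in ETH, with an interaction of -0.83 that was lost in 10 of 15 alternatives.

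For 8 further pairs the normalized counts of both libraries of a knockdown lay on one side of their controls in ER-Src TAM and on the opposite side in MDA-MB-231, and the difference was not tested. The pairs were picked for this pattern among the 10 members with YAPi, TAZi, STAT3i and JUNBi. How many of all genes show the pattern was not counted, so whether 8 is more than other genes would give is not known. Separation alone is common with 2 libraries a group. With YAPi in set 1 it held for 10 of 10 members and 12 of 14 ERK output genes. In TPM this held for 4 of the 8, DUSP1 with YAPi, DUSP5 with JUNBi, and DUSP4 and DUSP6 with STAT3i. The others overlapped in TPM in at least 1 line (SPRED1 with YAPi, and SPRED2 with JUNBi and STAT3i) or lay below the controls in both lines (SPRY2 with YAPi, at 13.32 and 18.34 against 39.09 and 42.81 TPM in set 1). With STAT3i the effect in ER-Src TAM minus that in MDA-MB-231 set 2 was -1.75 for DUSP6, -0.78 for SPRED2 and -0.7 for DUSP4. With JUNBi it was -1.4 for DUSP5 and -0.92 for SPRED2. In these contrasts with set 2, cell line and library type cannot be told apart. With YAPi, set against MDA-MB-231 set 1, it was -1.11 for SPRED1, 0.56 for DUSP1 and -0.45 for SPRY2. Of these 16 single effects, those of DUSP6 with STAT3i in ER-Src TAM, DUSP5 with JUNBi in set 2 and SPRED1 with YAPi in set 1 had passed the test.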

How the results depend on the processing

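Each of the 23 counts of called members was recomputed under up to 15 other settings. With edgeR the count was 1 for YAPi in TAM (0 in DESeq2), 0 for JUNBi in TAM (4), 3 for YAPi in ETH (1), 3 for TAZi in ETH (0), 2 for JUNBi in ETH (1), 2 for the YAPi interaction (1), 2 for STAT3i against JUNBi (1), 4 for YAPi in set 1 (7) and 1 for YAPi against TAZi in set 1 (0). The local dispersion trend, an alternative chosen after seeing the data, gave 2 for YAPi, 7 for JUNBi in TAM, 3 for YAPi, 2 for TAZi and 2 for JUNBi in ETH, and 2 for STAT3i against JUNBi. 1 fit over all ER-Src libraries gave 1 for YAPi in TAM, 3 for JUNBi in ETH, 0 for the YAPi interaction and 2 for STAT3i against JUNBi. Effective length offsets gave 3 for STAT3i in TAM, 1 for TAZi in ETH, 0 for the YAPi interaction, 1 for the STAT3i interaction and 0 for JUNBi in set 2. TMM size factors gave 0 for the YAPi interaction, and a filter at a mean count of 10 moved no count by over 1.5 times.

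In the fit with a replicate block the count was 1 for TAZi and 3 for STAT3i in TAM and 0 for YAPi in ETH. Same-numbered libraries deviated together with r from -0.054 to 0.41 in the ER-Src comparisons of 2 groups, and with 0.802 and 0.836 between set 1 knockdowns. With 2 pairs a comparison the numbers are not shown to pair the ER-Src samples. In the set 1 knockdowns the number goes with the gap between length and effective length (48.0 and 74.6 bases), and the blocked fit called 0 members for YAPi against TAZi and 3 for YAPi_TAZi against TEADi, as without it. In set 2 no paired analysis was possible because its controls are numbered 3 and 4 and the knockdowns 1 and 2.

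With the controls of both sets the count was 1 for YAPi, 1 for TAZi, 3 for YAPi_TAZi and 2 for TEADi in set 1 and 0 for JUNBi in set 2. With the other set 1 knockdowns as reference and a replicate block it was 0, 0, 1 and 1 for YAPi, TAZi, YAPi_TAZi and TEADi. Among the 2668 recomputed log2 changes 12 reversed, all in set 1. With the controls of both sets these were DUSP4 with YAPi (0.0042) and with TEADi (0.14). Against the other knockdowns they were, with YAPi, SPRY1 (1.06), SPRY4 (0.27), SPRED1 (-0.37) and SPRED2 (0.0908), with TAZi DUSP6 (0.13), DUSP10 (-0.30) and SPRED1 (-0.0349), with YAPi_TAZi DUSP6 (0.67) and SPRED2 (0.45), and with TEADi DUSP5 (0.0877). The cause was not tested.

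Leaving out 1 library at a time, with a lone library assumed to vary like the other group, gave 0 to 1 for TAZi, 1 to 2 for STAT3i and 1 to 3 for JUNBi in TAM, 0 to 0 for YAPi and 0 to 2 for JUNBi in ETH. It gave 0 to 1 for the YAPi, 1 to 4 for the STAT3i and 0 to 1 for the JUNBi interaction, 1 to 2 for YAPi against TAZi and 0 to 0 for STAT3i against JUNBi in TAM. In set 1 it gave 3 to 7 for YAPi, 5 to 8 for YAPi_TAZi, 4 to 7 for TEADi and 1 to 2 for YAPi_TAZi against TEADi, and in set 2 it gave 0 to 0 for JUNBi. The 1 call of the JUNBi interaction was DUSP1, at -1.19 without JUNBi ETH replicate 1. Of the 58 called values, 187 recomputed ones missed the threshold and 43 values not called before passed it. Calls rest on 2 libraries a group, with few reads for DUSP10, SPRY1 and SPRED2 in ER-Src and shallow set 1 knockdowns.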
